A study of Homo sapiens with 24 samples.

Results

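The 54 genes described here encode the factors that start and extend protein synthesis. They were chosen by symbol from the exon and intron count tables, and they are 54 of the 60308 genes counted over exons. They fall into 10 groups by role: 5 factors of start codon selection and subunit joining, 5 that carry the initiator tRNA, 5 subunits of eIF2B, 4 kinases of eIF2 alpha, 13 subunits of eIF3, 3 eIF4G scaffolds, 5 helicases of the eIF4A type and their cofactors, 6 cap-binding proteins and inhibitors, 3 of eIF5A and eIF6, and 5 elongation factors. RNA came from U2OS cells, a human osteosarcoma line, which received NaAsO2 (500 µM, 60 min), RK-33 (6 µM, with a pre-treatment of 1 h), RK-33 followed by NaAsO2 (Combo), or DMSO alone (0.12%, 2 h; Ctrl). By the study's methods, the DMSO treatment corresponds in length and timing to that with RK-33. NaAsO2 causes oxidative stress and assembles stress granules (SGs), and RK-33 inhibits the ATPase of the helicase DDX3. Each lysate was freed of nuclei and split into a soluble and an insoluble cytoplasmic fraction, the latter enriched for SGs and P-bodies, which gave 8 groups of 3 libraries. The cells are 1 established line, the pellet is an enriched fraction and not purified granules, and the 3 libraries of a group are repeats of the experiment by the study's methods, although neither these nor the labels say how cultures were split between repeats. The p-values measure the spread between these repeats. In these bulk fractions, a lower level in every cell and an absence from some of the cells cannot be told apart.

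Initiation begins when eIF2 brings the initiator tRNA to the small ribosomal subunit, while eIF4E binds the cap, eIF4G bridges cap and ribosome and eIF4A unwinds the leader, with eIF3 holding the assembly together. Arsenite activates a kinase that phosphorylates eIF2 alpha, which blocks the exchange factor eIF2B, stops initiation and releases mRNAs into SGs. Several of these factors, above all the elongation factors, are encoded by TOP mRNAs. These start with a C followed by a run of pyrimidines, and their translation is tuned through this terminal oligopyrimidine tract. By canonical transcript, the mRNAs of the eIF4G scaffolds are longer than those of the elongation factors. Length does not separate the sets, since EIF3F (6920 bases) and EIF3H (3961 bases), also taken as TOP mRNAs, are longer than EIF4G2 (3794 bases). The set therefore allows a contrast of TOP mRNAs with eIF4G mRNAs across fractions and treatments.

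Levels are given as CPM, exon counts scaled to the size of each library with TMM, a normalization that sets most genes equal between libraries. A level is thus relative to the other RNAs of its library. The spike-in RNA that the study added was not used, so absolute amounts of an mRNA in a fraction are not given. A gene was called higher or lower where edgeR's quasi-likelihood test gave an adjusted p under 0.05 and the log2 fold change was 1 or more in either direction (the fold limit). The libraries held 10968059 to 19799530 exon plus intron counts, and the 54 genes held 1.36% to 1.84% of exon counts of soluble libraries and 1.03% to 1.38% of those of insoluble ones. Replicate 3 of the NaAsO2 insoluble fraction stood apart: RN7SL1 took 5.79% of its exon counts, against 0.426% to 1.23% in the other insoluble libraries, and 7 members had a level at least 1 log2 unit below the mean of the other replicates there, as did 12.1% of all genes tested. In a chi-square test of gene counts, scaled by its degrees of freedom, it stood at 142 and 130 from the other replicates, which were 5.78 apart. Replicate 3 of the RK-33 soluble fraction also stood apart, at 32.4 and 23.1 against 4.13 between the others, with RN7SL1 at 15.5% against 8.42% and 9.13%, and so did replicate 3 of the Combo insoluble fraction, at 25.5 and 32.1 against 3.19, with RN7SL1 at 1.23% against 0.746% and 0.521%. Every other pair of replicates lay between 2.39 and 7.01. The mesenchymal marker VIM was at 258 to 1184 CPM over all libraries. The response gene HMOX1 was at 61.2 to 71.6 CPM in the NaAsO2 soluble libraries, against 16.3 to 20.3 in Ctrl and 20.6 to 26.9 in RK-33. Other response genes, HSPA1A, HSPA1B, DNAJB1 and ATF3, were above Ctrl in the RK-33 soluble libraries too. Soluble HSPA1A was at 24.9 to 30.6 CPM in Ctrl, 78.7 to 96.0 in NaAsO2, 298 to 430 in RK-33 and 1129 to 1277 in Combo. The nuclear RNA MALAT1 was at 5992 to 15023 CPM in the soluble and 1315 to 6857 CPM in the insoluble libraries, and NEAT1, also nuclear, at 286 to 728 and 811 to 3368 CPM. The part of nuclear RNA in the results was not tested.

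Counts of some members are partial. EEF1G, a subunit of the elongation factor 1 complex, was at 0 counts in all 24 libraries. In GENCODE release 44, 99.7% of its exon bases are shared with an overlapping gene, and fragments that touch more than 1 gene were left unassigned. The same applies to EIF4A1, with 47.4% of its exon bases shared with other genes and 39 to 193 counts per library. It also applies to EIF3L, with 51.8% shared, and to EEF1D, with 34.0% shared. EIF3C had only 11 to 48 counts per library and has a near-identical copy, EIF3CL, so its values are uncertain. With EEF1G left out, 53 members were tested over exons within a fit of 17666 genes.

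The start sites of the mRNAs show which members carry a pyrimidine tract. The sequences are 30 bases of RefSeq promoter windows on GRCh38.p14, from 10 bases before the start site to 20 bases from it on, in lower case, with the run of C and T from the start site in capitals where it was a C followed by at least 4 further C or T. For genes with several windows, the one nearest the start of the canonical GENCODE transcript was taken. TOP members are those known for the tract (5 elongation factors, EIF3E, EIF3F and EIF3H). They were listed by name and not by the run found here. Shown first are TOP members, and other members with such a run whose relative level between fractions changed after NaAsO2. The eIF4G scaffolds and EIF2B2, which have no run, follow.
EEF1A1 (chr6:73521013-73521042, minus strand): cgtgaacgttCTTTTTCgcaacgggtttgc
EEF1B2 (chr2:206159885-206159914, plus strand): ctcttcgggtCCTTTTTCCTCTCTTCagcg
EEF2 (chr19:3985444-3985473, minus strand): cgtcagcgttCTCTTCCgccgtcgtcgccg
EIF3F (chr11:7987327-7987356, plus strand): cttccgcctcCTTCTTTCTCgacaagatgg
EIF3D (chr22:36529147-36529176, minus strand): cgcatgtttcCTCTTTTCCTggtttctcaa
EIF2A (chr3:150546777-150546806, plus strand): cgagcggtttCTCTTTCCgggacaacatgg
EIF4G1 (chr3:184314596-184314625, plus strand): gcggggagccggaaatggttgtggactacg
EIF4G2 (chr11:10808907-10808936, minus strand): acgccttagcgccagcagtgagtcggagct
EIF4G3 (chr1:21176878-21176907, minus strand): ttttccgagcagccgtcctgccggactgct
EIF2B2 (chr14:75002911-75002940, plus strand): cgcccgccccggaagtgcaaactgtgtggt
The run had 7 bases in EEF1A1 and EEF2, 8 in EIF2A, 10 in EIF3D and EIF3F and 16 in EEF1B2. Of the 54 genes, 45 had an entry in the table, and 12 of the 45, or 26.7%, had a run of at least 5 bases in any window: EEF1A1, EEF1B2, EEF2, EIF2A, EIF2D, EIF2S3, EIF3D, EIF3F, EIF3K, EIF3M, EIF4A2 and EIF4B. Such a run was present in 4.07% of all 35116 windows and in 5.14% of all genes in the table. EIF2S2, EIF2AK1, EIF3A, EIF3E, EIF3G, EIF3H, EIF3L, EIF4EBP1 and EEF1D are not in the table. EEF1G is in the table and its longest run was 0 bases.

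Most of the 53 mRNAs were lower in the insoluble than in the soluble fraction, and most widely so after NaAsO2. Without the fold limit, 11 were higher and 27 lower in Ctrl (all genes 24.4% and 26.6%), 7 and 40 in NaAsO2 (27.9% and 29.7%), 6 and 38 in RK-33 (29.2% and 30.4%), and 6 and 38 in Combo (24.1% and 28%). With it, 5 members in Ctrl were called higher and 12 lower in the insoluble fraction, against 11.8% and 10.7% of all genes tested. In NaAsO2, 2 were higher and 28 lower, against 14.6% and 16%. RK-33 gave 2 higher and 15 lower, against 15.5% and 15.2%, and Combo gave 2 higher and 15 lower, against 10% and 13.1%. The median log2 fold change of the members was -0.37, -1.03, -0.70 and -0.70 in Ctrl, NaAsO2, RK-33 and Combo, and that of all genes tested lay between -0.03 and 0.03. EIF4G1 was the only member called higher in all 4 treatments, although its value in RK-33 was 0.95 with exon plus intron counts and in Combo the call was lost in 3 of 15 alternatives, with 0.89 on leaving out replicate 3 of the Combo insoluble fraction and 0.98 on leaving out that of the soluble one. EEF1B2, EIF1, EIF1B, EIF2S2, EIF3H, EIF3I, EIF4EBP1 and EIF5A were called lower in all 4, of which EIF3H lost the call with exon plus intron counts in Ctrl (-0.27, adjusted p = 0.28) and in RK-33 (-0.32, adjusted p = 0.18) by edgeR's quasi-likelihood test. Exon plus intron counts took away 7 of the 17 calls in Ctrl (EIF3A, EIF3B, EIF3C, EIF3H, EIF4E2, EIF4G3 and EIF5A2), among them 4 of the 5 higher ones. Without replicate 3 of the NaAsO2 insoluble fraction, 23 members were called in NaAsO2 in place of 30, of which 20 were shared, and the median was -0.93.

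**Figure D1:**
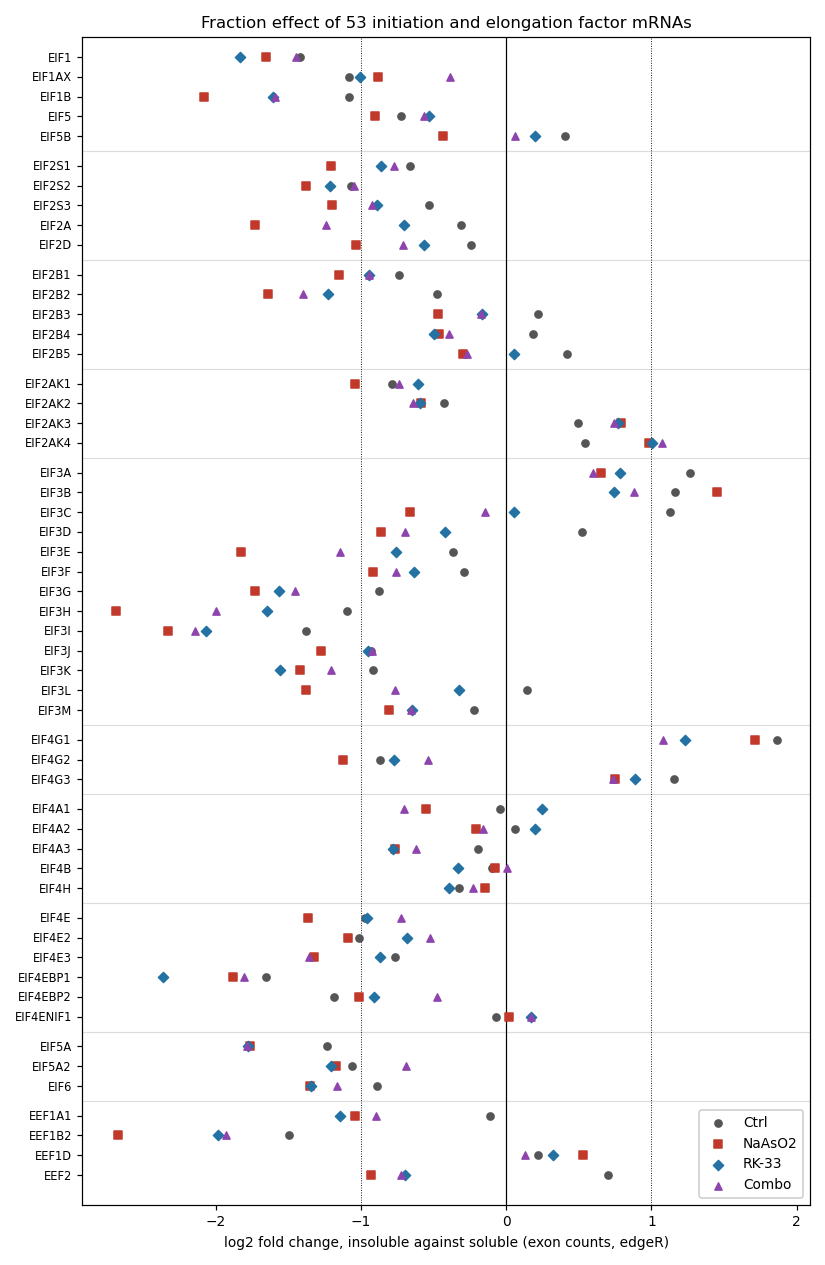
Log2 fold change of the insoluble against the soluble fraction (x axis) for each of the 53 members tested (y axis, ordered by role), with 1 symbol per treatment and dotted lines at -1 and 1. EIF4G1 lies to the right of 1 in all 4 treatments, while the squares of NaAsO2 lie left of the circles of Ctrl for 44 of 53 members.

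EEF1D aside, the elongation factor mRNAs counted were lower in the pellet than in the soluble fraction after NaAsO2, RK-33 and Combo. EEF1A1, which delivers aminoacyl-tRNA to the ribosome, was the most abundant member per kilobase of canonical transcript in every group, with 1313 ± 151 CPM per kilobase (SD, n = 3) in the Ctrl soluble fraction. In the soluble fraction, EEF1A1 was at 4078, 5140.1 and 4611 CPM in Ctrl, 6815, 6993 and 7492 in NaAsO2, 4644, 5542 and 7077 in RK-33 and 6263, 5637 and 5298 in Combo. In the insoluble fraction it was at 3785, 4384 and 4612 CPM in Ctrl, 2911, 3097 and 4353 in NaAsO2, 2765, 2302 and 2737 in RK-33 and 3093, 2694 and 3468 in Combo. The fractions overlapped in Ctrl and were separate in the other treatments, with the insoluble libraries lower. Its log2 fold change between fractions was -0.11 in Ctrl, -1.04 in NaAsO2, -1.15 in RK-33 and -0.89 in Combo, with adjusted p = 0.58, 1.1e-05, 4.1e-06 and 9.1e-05. Its value sat close to the fold limit: the NaAsO2 call was lost in 6 of 15 alternatives (down to -0.85), and the RK-33 call was lost without replicate 3 of the RK-33 soluble fraction (-0.97).

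EEF2, the translocase that moves the ribosome along the mRNA, had the higher relative level in the insoluble fraction in Ctrl alone. Its soluble level was 863, 1077 and 989 CPM in Ctrl, 1903, 1783 and 2096 in NaAsO2, 1265, 1545 and 1752 in RK-33 and 1683, 1528 and 1334 in Combo. Its insoluble level was 1402, 1602 and 1750.4 CPM in Ctrl, 905, 1064 and 1067 in NaAsO2, 934, 928 and 956 in RK-33 and 907, 797 and 1048 in Combo. In Ctrl all insoluble libraries lay above all soluble ones, and in NaAsO2, RK-33 and Combo all lay below. The log2 fold change between fractions was 0.70 in Ctrl, -0.93 in NaAsO2, -0.70 in RK-33 and -0.72 in Combo, with adjusted p of 0.00023, 4.8e-06, 0.00017 and 0.00013. EEF2 and EIF3D were the members that passed the adjusted p as higher in Ctrl and as lower in each of the other 3 treatments. EIF5B and EIF2B5 passed in opposite directions in Ctrl and NaAsO2, and EIF2B5 also did in Ctrl and Combo. EIF5B in NaAsO2 was at 170, 153 and 85.9 CPM in the insoluble and 199, 173 and 183 CPM in the soluble fraction. The 85.9 CPM came from replicate 3.

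EEF1B2, the nucleotide exchange factor of elongation factor 1, was lower in the pellet throughout. Its soluble libraries were at 251, 317 and 279 CPM in Ctrl, 374, 354 and 387 in NaAsO2, 233, 244 and 281 in RK-33 and 294, 259.7 and 236 in Combo. Its insoluble libraries were at 93.4, 104 and 103 CPM in Ctrl, 59.5, 63.6 and 51.3 in NaAsO2, 70.9, 54.6 and 66 in RK-33 and 81.7, 58.9 and 66.7 in Combo. No treatment had overlapping fractions, and the log2 fold change was -1.50 in Ctrl, -2.67 in NaAsO2, -1.98 in RK-33 and -1.93 in Combo. EEF1D, another subunit of the exchange complex that is only partly counted because of overlapping genes, differed from the other elongation factors. It was at 204, 191 and 212 CPM in Ctrl, 179.6, 206 and 195 in NaAsO2, 217, 199 and 206 in RK-33 and 228, 214 and 221 in Combo in the soluble fraction. It was at 237, 226 and 243 CPM in Ctrl, 202, 189 and 448 in NaAsO2, 230.4, 299.9 and 246 in RK-33 and 226, 207 and 291 in Combo in the insoluble fraction. The value of 448 CPM came from replicate 3 of the NaAsO2 insoluble fraction. The log2 fold change of EEF1D in NaAsO2 was 0.53 (adjusted p = 0.036) with that library and 0.05 (adjusted p = 0.73) without it.

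**Figure D2:**
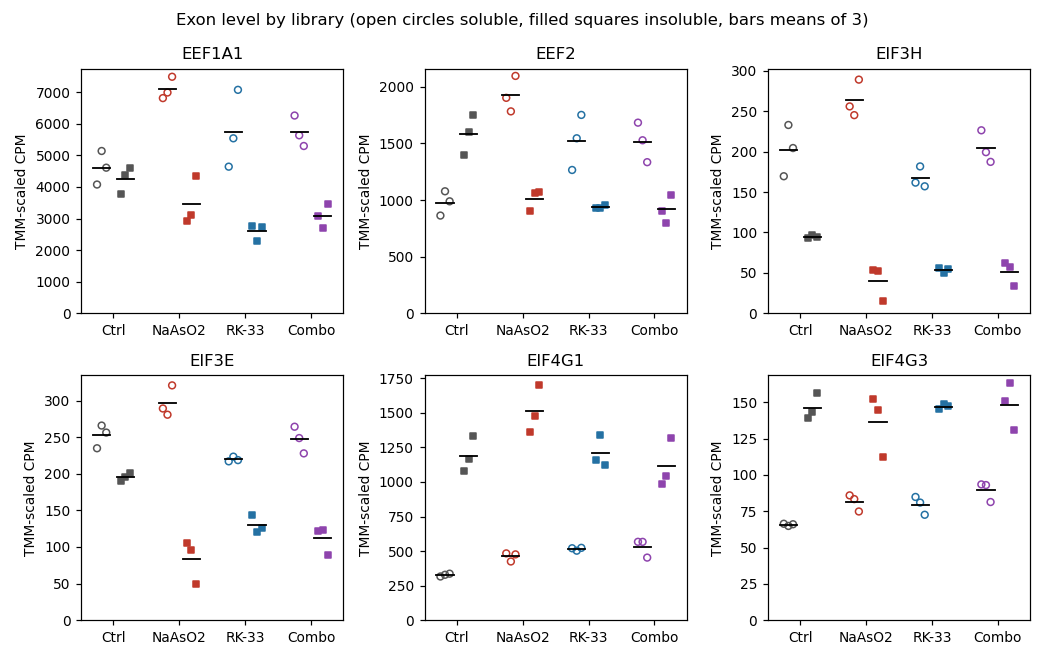
TMM-scaled CPM (y axis, linear, from 0) of 4 TOP members and 2 eIF4G members in every library by treatment (x axis), with open circles for soluble and filled squares for insoluble libraries and bars at the mean of 3. EEF2 squares lie above the circles in Ctrl and below them in the other 3 treatments, while EIF4G1 and EIF4G3 squares lie above in all 4.

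The remaining TOP members encode subunits of eIF3. EIF3E was at 235, 266 and 256 CPM in Ctrl, 289, 281 and 321 in NaAsO2, 217, 223 and 219 in RK-33 and 264, 249 and 228 in Combo in soluble libraries. In the pellet EIF3E was at 190.4, 195 and 201 CPM in Ctrl, 105, 95.9 and 49.8 in NaAsO2, 143, 120.0 and 126 in RK-33 and 122, 123 and 89.4 in Combo. EIF3H was at 169.5, 233 and 204 CPM in Ctrl, 256, 245 and 289 in NaAsO2, 162, 182 and 157 in RK-33 and 226, 199 and 187 in Combo in soluble libraries. The fractions of both genes were separate in every treatment, with lower insoluble levels. In the pellet EIF3H was at 93, 96.6 and 94.5 CPM in Ctrl, 53.6, 52.3 and 15.5 in NaAsO2, 55.8, 49.2 and 55 in RK-33 and 62, 57.3 and 34.2 in Combo. For both, replicate 3 was the lowest of the NaAsO2 and of the Combo insoluble libraries. EIF3F was at 168, 208 and 175 CPM in Ctrl, 234, 226 and 268 in NaAsO2, 185, 203 and 216 in RK-33 and 219, 200.3 and 188 in Combo in soluble libraries and, in the pellet, at 148, 151 and 153 CPM in Ctrl, 149.6, 144 and 92.4 in NaAsO2, 135, 109 and 145 in RK-33 and 126, 119 and 114 in Combo. The fractions of EIF3F did not overlap either, but its log2 fold change, -0.29 in Ctrl, -0.91 in NaAsO2, -0.63 in RK-33 and -0.76 in Combo, stayed inside the fold limit.

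The eIF4G scaffolds did not behave alike. EIF4G1, the main scaffold between cap and ribosome, was at 316, 328 and 336 CPM in Ctrl, 483, 425 and 476 in NaAsO2, 520.3, 503 and 523 in RK-33 and 567, 567 and 453 in Combo in the soluble fraction. In the insoluble fraction it was at 1078, 1163 and 1332 CPM in Ctrl, 1359.6, 1479 and 1701 in NaAsO2, 1159, 1341 and 1125 in RK-33 and 987, 1044 and 1318 in Combo. Insoluble libraries were higher in every treatment, with log2 fold changes of 1.87 in Ctrl, 1.71 in NaAsO2, 1.23 in RK-33 and 1.08 in Combo. EIF4G3, another scaffold of the same type, had soluble levels of 66.4, 64.9 and 66 CPM in Ctrl, 85.9, 83.3 and 74.8 in NaAsO2, 84.8, 81 and 72.6 in RK-33 and 93.5, 93 and 81.3 in Combo. Its insoluble levels were 139, 144 and 156 CPM in Ctrl, 152, 145 and 113 in NaAsO2, 145, 149 and 147 in RK-33 and 151, 164 and 131 in Combo. EIF4G3 was higher in the pellet in every treatment and passed the fold limit in Ctrl (log2 fold change 1.15, SE 0.12, adjusted p = 5.0e-08). EIF4G2, also called DAP5, lacks the eIF4E-binding part and had soluble levels of 1076, 1209 and 1108 CPM in Ctrl, 1370.2, 1283 and 1425 in NaAsO2, 952, 1096 and 1073 in RK-33 and 1284, 1182 and 1095 in Combo. Its insoluble levels were 592, 652 and 619.8 CPM in Ctrl, 700.0, 674 and 502 in NaAsO2, 648, 545 and 639.6 in RK-33 and 823, 856 and 772 in Combo. EIF4G2 was lower in the pellet in every treatment, with log2 fold changes of -0.86 in Ctrl, -1.12 in NaAsO2, -0.77 in RK-33 and -0.54 in Combo, and none of its insoluble libraries reached a soluble one of the same treatment.

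Set side by side per lysate, the means of TOP and eIF4G members lay on opposite sides of 0. Soluble and insoluble libraries with the same replicate number were taken as 1 lysate, which the labels do not state. The mean log2 ratio of insoluble over soluble CPM, with 0.5 added to each, was taken over the 7 TOP members counted (EEF1A1, EEF1B2, EEF1D, EEF2, EIF3E, EIF3F and EIF3H) and over the 3 eIF4G members. The TOP mean was -0.28, -0.46 and -0.30 in the 3 Ctrl lysates, -1.30, -1.27 and -1.69 in NaAsO2, -0.77, -1.03 and -0.99 in RK-33, and -1.07, -1.10 and -0.98 in Combo. The eIF4G mean was 0.66, 0.69 and 0.79 in Ctrl, 0.45, 0.55 and 0.31 in NaAsO2, 0.46, 0.43 and 0.46 in RK-33, and 0.28, 0.41 and 0.57 in Combo. TOP means were below 0 and eIF4G means above 0 in all 12 lysates. Single members departed from their means: EIF4G2 was below 0 in all 12 lysates, EEF1D was above 0 in 9 of 12, EEF2 in the 3 Ctrl lysates and EEF1A1 in 1 of 12. TOP minus eIF4G was -1.06 ± 0.11 (SD, n = 3) in Ctrl, -1.86 ± 0.13 in NaAsO2, -1.38 ± 0.13 in RK-33 and -1.48 ± 0.11 in Combo, and the values of NaAsO2 did not overlap with those of any other treatment. No test was made, since the members of the contrast were given with the results known. Members with a pyrimidine run outside the TOP list did not enter the TOP mean. Of these, EIF2A, EIF2D, EIF2S3, EIF3K and EIF3M were below 0 in all 12 lysates, and EIF3D in all but those of Ctrl. EIF4A2 lay between -0.52 and 0.26 and EIF4B between -0.53 and 0.23. Between the single genes EEF2 and EIF4G1, the log2 ratio differed by -1.07, -1.25 and -1.16 in Ctrl, by -2.56, -2.54 and -2.81 in NaAsO2, by -1.59, -2.15 and -1.98 in RK-33, and by -1.69, -1.82 and -1.89 in Combo.

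**Figure D3:**
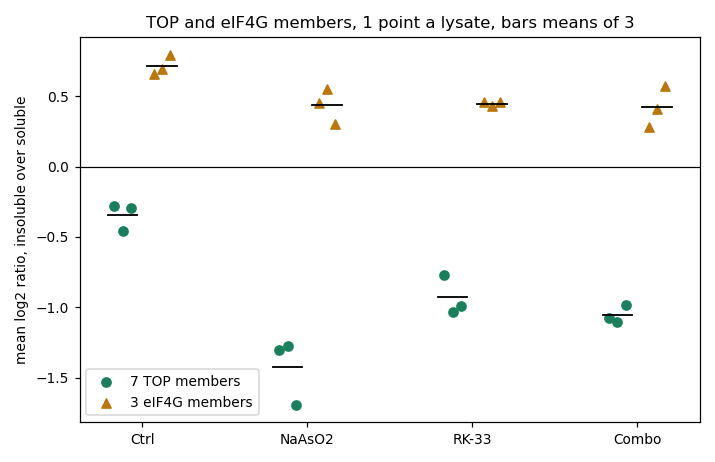
Mean log2 ratio of insoluble over soluble level (y axis) of the 7 TOP members (circles) and the 3 eIF4G members (triangles) in each of the 12 lysates by treatment (x axis), with bars at the mean of 3. All circles lie below 0 and all triangles above, and the circles of NaAsO2, at -1.27 to -1.69, lie lowest.

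The 13 subunits of eIF3, the largest initiation factor, split into members enriched in the pellet and members depleted from it. In Ctrl, 3 were called higher (EIF3A, EIF3B and the thinly counted EIF3C, 1.13) and 2 lower, against 11.8% and 10.7% of all genes tested. In NaAsO2, 1 was higher and 7 lower, against 14.6% and 16%. EIF3A, the scaffold subunit, was higher in Ctrl (log2 fold change 1.26, SE 0.10, adjusted p = 1.3e-09). EIF3B, a further core subunit, was higher in Ctrl (log2 fold change 1.16, SE 0.31, adjusted p = 0.0034) and in NaAsO2 (log2 fold change 1.45, SE 0.31, adjusted p = 0.00036), although the NaAsO2 value of EIF3B fell to 0.69, inside the fold limit, without replicate 3 of that insoluble fraction. EIF3I had the lowest fraction effect in Combo (log2 fold change -2.14, SE 0.16, adjusted p = 6.5e-10). EIF3H had the lowest in NaAsO2 (log2 fold change -2.69, SE 0.28, adjusted p = 3.3e-08), which rested on replicate 3 of the insoluble fraction: without it EIF3H was at -2.28, EEF1B2 at -2.56 and EIF3I at -2.52. EIF3H was also lower in Combo (log2 fold change -2.0, SE 0.28, adjusted p = 2.6e-06). EIF3G, EIF3K, EIF3E, EIF3J and EIF3L were lower in NaAsO2 as well, with log2 fold changes of -1.73, -1.42, -1.82, -1.27 and -1.38, and the calls of EIF3J and EIF3L were lost without replicate 3.

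EIF3D, the subunit that can bind caps itself, was at 114, 130.0 and 119 CPM in Ctrl, 191, 178 and 208 in NaAsO2, 139, 151 and 166 in RK-33 and 179, 170.2 and 148 in Combo in the soluble fraction. In the pellet EIF3D was at 156, 177 and 188 CPM in Ctrl, 108, 112 and 97.5 in NaAsO2, 121, 107 and 112 in RK-33 and 104, 96 and 106 in Combo. As for EEF2, the insoluble libraries were the higher ones in Ctrl alone. EIF3L was at 85.9, 104 and 99.7 CPM in Ctrl, 133, 126 and 147 in NaAsO2, 93.5, 94 and 86.5 in RK-33 and 115, 107 and 91.1 in Combo in the soluble fraction. In the pellet EIF3L was at 99.8, 108 and 113 CPM in Ctrl, 65.4, 68.6 and 21.2 in NaAsO2, 71.7, 68.8 and 78.7 in RK-33 and 73.4, 64.9 and 46.1 in Combo. The 21.2 CPM of EIF3L in replicate 3 of NaAsO2 stood beside 65.4 and 68.6 CPM in the other replicates. EIF3C had 1.01 to 4.44 CPM in all libraries, with 2.33, 1.01 and 2.03 in Ctrl soluble, 3.14, 4.13 and 4.44 in Ctrl insoluble, 2.26, 2.99 and 4.41 in NaAsO2 soluble and 1.42, 1.68 and 3.32 in NaAsO2 insoluble libraries. Its RK-33 libraries were at 3.22, 2.31 and 3.77 (soluble) and 2.75, 3.61 and 3.27 (insoluble), and its Combo libraries at 2.50, 2.88 and 3.00 and 2.55, 2.31 and 2.68.

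Among eIF2 and related factors, all 5 (the 3 subunits EIF2S1, EIF2S2 and EIF2S3, and EIF2A and EIF2D, which can deliver initiator tRNA without eIF2) were called lower in the pellet in NaAsO2, with log2 fold changes from -1.73 (EIF2A) to -1.03 (EIF2D). In Ctrl, EIF2S2 alone was called (-1.07). Of all genes tested, 16% were called lower in NaAsO2 and 10.7% in Ctrl. EIF2A was at 53.2, 58.9 and 58.1 CPM in Ctrl, 68, 67.7 and 78.1 in NaAsO2, 52.8, 54.5 and 49.8 in RK-33 and 66.9, 60.4 and 61.9 in Combo in the soluble fraction. In the pellet EIF2A was at 45.1, 42 and 50.3 CPM in Ctrl, 26.3, 26.7 and 10.7 in NaAsO2, 34.9, 30.2 and 31.2 in RK-33 and 31.4, 29.2 and 19.8 in Combo. Its fractions overlapped in no treatment, and replicate 3 was the lowest insoluble library in NaAsO2 and in Combo. Without the NaAsO2 library, EIF2D, EIF2S1 and EIF2S3 lost the call in NaAsO2. The call of EIF2D was lost in 7 of 15 alternatives, among them library size alone and DESeq2, and those of EIF2S1 and EIF2S3 in 1.

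Of the 5 subunits of eIF2B, the exchange factor that recharges eIF2, none was called in Ctrl, and EIF2B1 (-1.15) and EIF2B2 (-1.64) were called lower in NaAsO2. Lower calls made up 10.7% of all genes tested in Ctrl and 16% in NaAsO2. EIF2B2 was at 29.3, 36.3 and 37.8 CPM in Ctrl, 53.7, 49.7 and 53.2 in NaAsO2, 36.5, 41.8 and 50.4 in RK-33 and 53.3, 43.9 and 49.3 in Combo in the soluble fraction. In the pellet EIF2B2 was at 23.5, 26.6 and 24.1 CPM in Ctrl, 16.3, 14.3 and 19.9 in NaAsO2, 19.7, 16.7 and 18.5 in RK-33 and 20.2, 16.5 and 18.8 in Combo, below every soluble library of the same treatment. The mRNAs of the eIF2 alpha kinases went both ways. EIF2AK4 (GCN2, the kinase that senses uncharged tRNA) was higher in RK-33 (log2 fold change 1.0, SE 0.14, adjusted p = 2.4e-06) and in Combo (log2 fold change 1.07, SE 0.14, adjusted p = 1.1e-06), and was just inside the fold limit in NaAsO2 (0.98). The RK-33 call was lost in 7 of 15 alternatives (down to 0.72), among them those without replicate 3 of either RK-33 fraction or replicate 2 of the soluble one, and the Combo call in 3 of 15 (down to 0.88), among them those without replicate 3 of either Combo fraction. EIF2AK1 (HRI, the kinase that responds to arsenite and heme shortage) was lower in NaAsO2 (-1.04, adjusted p = 5.1e-06). This call was lost in 8 of 15 alternatives, among them library size alone, DESeq2 and leaving out replicate 3 of either NaAsO2 fraction. EIF2AK2 (PKR) had log2 fold changes of -0.43 in Ctrl, -0.59 in NaAsO2, -0.59 in RK-33 and -0.64 in Combo, and EIF2AK3 (PERK) of 0.49 in Ctrl, 0.79 in NaAsO2, 0.77 in RK-33 and 0.75 in Combo, with no call in either.

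Several small factors were lower in the pellet. EIF1, which guards the choice of start codon, was lower in Ctrl (log2 fold change -1.42, SE 0.12, adjusted p = 2.7e-09), and its log2 fold change was -1.65 in NaAsO2, -1.83 in RK-33 and -1.45 in Combo. EIF5A, the hypusine-bearing elongation and termination factor, had -1.23 in Ctrl, -1.76 in NaAsO2, -1.78 in RK-33 and -1.78 in Combo. EIF4EBP1, the inhibitor of eIF4E under the control of mTOR, was lowest of all members in Ctrl (log2 fold change -1.66, SE 0.23, adjusted p = 3.1e-06) and in RK-33 (log2 fold change -2.36, SE 0.23, adjusted p = 1.7e-08). The next lowest were EEF1B2 in Ctrl (log2 fold change -1.50, SE 0.14, adjusted p = 1.1e-08) and EIF3I in RK-33 (log2 fold change -2.06, SE 0.16, adjusted p = 1.0e-09), and EEF1B2 was again among the lowest 3 in NaAsO2 (log2 fold change -2.67, SE 0.14, adjusted p = 1.3e-12), RK-33 (log2 fold change -1.98, SE 0.14, adjusted p = 1.8e-10) and Combo (log2 fold change -1.93, SE 0.14, adjusted p = 2.2e-10). EIF3I was the other in NaAsO2 (log2 fold change -2.32, SE 0.17, adjusted p = 7.2e-11). EIF4G1 had the highest fraction effect of the members in Ctrl (log2 fold change 1.87, SE 0.13, adjusted p = 3.6e-10), NaAsO2 (log2 fold change 1.71, SE 0.13, adjusted p = 2.0e-10), RK-33 (log2 fold change 1.23, SE 0.13, adjusted p = 4.7e-08) and Combo (log2 fold change 1.08, SE 0.13, adjusted p = 3.3e-07). The cap-binding group had 3 of 6 members called lower in Ctrl and 5 in NaAsO2, against 10.7% and 16% of all genes tested. Those in NaAsO2 included EIF4E (-1.36), the cap-binding protein itself, and the exception was EIF4ENIF1 (0.02), its transporter. None of the 5 mRNAs of the eIF4A group was called between fractions in any treatment by edgeR's quasi-likelihood test, with log2 fold changes from -0.78 (EIF4A3 in RK-33) to 0.25 (EIF4A1 in RK-33), although EIF4A1 was called lower in NaAsO2 (-1.03) without replicate 3. Without that library, EIF4EBP2, EIF5A2 and EIF4G2 also lost the call in NaAsO2, and EIF2AK4 (1.18) gained it. The NaAsO2 call of EIF4EBP2 was lost in 8 of 15 alternatives. EIF1B, a paralog of EIF1, had log2 fold changes of -1.08 in Ctrl, -2.08 in NaAsO2, -1.61 in RK-33 and -1.59 in Combo, all called. EIF1AX, which scans with EIF1, was called lower in Ctrl (-1.08) and RK-33 (-1.01), and the RK-33 call was lost in 6 of 15 alternatives. EIF6, which keeps the large ribosomal subunit apart, was called lower in NaAsO2 (-1.35), RK-33 (-1.34) and Combo (-1.17). The 18 members called between fractions in no treatment were EIF5, EIF5B, EIF2B3, EIF2B4, EIF2B5, EIF2AK2, EIF2AK3, EIF3D, EIF3F, EIF3M, EIF4A1, EIF4A2, EIF4A3, EIF4B, EIF4H, EIF4ENIF1, EEF1D and EEF2.

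Whether a treatment changed the relative level of an mRNA between fractions was tested as the difference of fraction effects. After NaAsO2, the fraction effect was below that of Ctrl for 44 of 53 members, with a median difference of -0.51, against -0.02 for all genes tested. The difference passed the call in 9 members, all downward, against 4.99% of all genes tested that passed downward and 4.57% upward. Without the fold limit, 21 passed, all downward, against 11.4% and 11% upward. The 9 were EEF2 (log2 fold change -1.63, SE 0.19, adjusted p = 5.8e-06), EIF3D (-1.38, SE 0.15, adjusted p = 2.8e-06), EEF1B2 (-1.18, SE 0.19, adjusted p = 0.00012), EIF3E (-1.46, SE 0.25, adjusted p = 0.00024), EIF2B2 (-1.16, SE 0.20, adjusted p = 0.00027), EIF2A (-1.42, SE 0.30, adjusted p = 0.0014), EIF3L (-1.53, SE 0.35, adjusted p = 0.0032), EIF3H (-1.59, SE 0.38, adjusted p = 0.0041) and EIF3C (-1.79, SE 0.45, adjusted p = 0.0065), by edgeR's quasi-likelihood test. All 9 kept the call without replicate 3 of the NaAsO2 insoluble fraction, and EEF1A1 and EIF3I were then called too. With the compared groups fitted alone, EIF3H, EIF3L and EIF3C missed the threshold (highest adjusted p = 0.057), and EIF2B2 lost the call without replicate 1 of the NaAsO2 insoluble fraction. The eIF4G scaffolds had differences of -0.15 (EIF4G1), -0.26 (EIF4G2) and -0.41 (EIF4G3), none past the call. Of the 12 members with a pyrimidine run at the start site, 11 had a negative difference, with a median of -0.73, and EIF4B (0.03) was the exception. The 32 members with an entry and no run had a median of -0.40 and 78.1% of negative differences. Within treatments, the median fraction effect of members with a run and of those without was -0.23 and -0.57 in Ctrl, -0.98 and -0.89 in NaAsO2, -0.67 and -0.73 in RK-33, and -0.74 and -0.55 in Combo, so members with a run did not lie lower in every treatment. EIF2B2 and EIF3C were called without a run. Of the 12 members with a run, EEF1B2, EEF2, EIF2A and EIF3D were called. The others, EEF1A1, EIF2D, EIF2S3, EIF3F, EIF3K, EIF3M, EIF4A2 and EIF4B, were not.

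**Figure D4:**
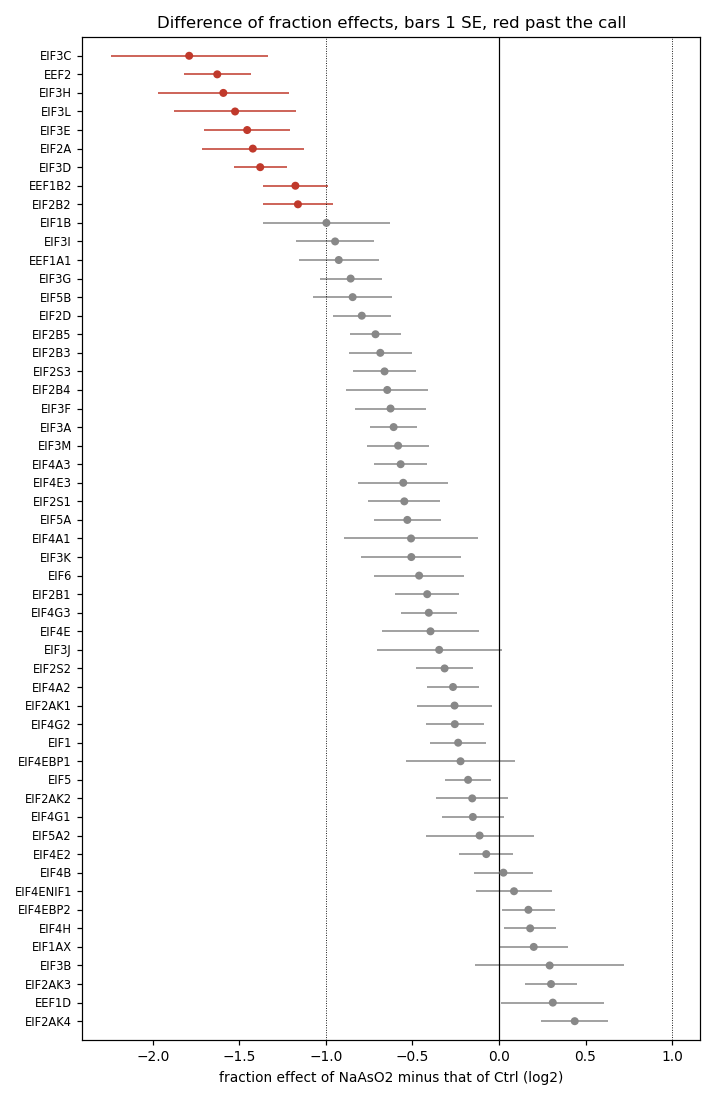
Fraction effect of NaAsO2 minus that of Ctrl on the log2 scale (x axis) for each of the 53 members (y axis), with bars of 1 SE and red points for the 9 members past the call. The red points lie between -1.16 and -1.79, and the eIF4G members lie between -0.15 and -0.41.

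After RK-33 alone, EEF2 and EEF1A1 were the members whose fraction effect differed from that of Ctrl past the call. More members passed the adjusted p without the fold limit. The difference from Ctrl was below 0 for 40 of 53, with a median of -0.35 against 0.01 for all genes tested, and 2 members were called, both downward, against 0.362% of all genes downward and 0.0736% upward. They were EEF2 (log2 fold change -1.39, SE 0.19, adjusted p = 0.00049) and EEF1A1 (log2 fold change -1.03, SE 0.23, adjusted p = 0.019). The call of EEF1A1 was lost in 11 of 21 alternatives, with adjusted p up to 0.083, and that of EEF2 in none. Without replicate 3 of the RK-33 soluble fraction, the difference of EEF1A1 was -0.85. With lysate as a replicate block, EEF2 alone was called, so 1 member in place of 2. With NaAsO2 present, RK-33 gave no called difference (Combo minus NaAsO2, 0 of 53 members by edgeR's quasi-likelihood test and by DESeq2, 11 at an unadjusted p under 0.05, against 0.142% of all genes called, 0.0340% upward), with 42 of 53 above 0 and a median of 0.20 against 0.00 for all genes. The 3 comparisons share libraries, since Ctrl enters both the NaAsO2 and the RK-33 difference and the NaAsO2 libraries enter both the NaAsO2 and the Combo difference.

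Treatments were also compared within each fraction. In the soluble fraction after NaAsO2, no member passed the call (0 of 53 by edgeR's quasi-likelihood test and by DESeq2, 31 at an unadjusted p under 0.05, against 1.68% of all genes called). Without the fold limit, 12 were higher and 1 lower, against 6.31% and 7% of all genes, and in 38 members all NaAsO2 libraries lay above all Ctrl libraries, against 26.9% of all genes. EEF2 led these with log2 fold change 0.98, SE 0.14, adjusted p = 8.4e-05, followed by EIF3D (0.67) and EEF1A1 (0.62). EIF2AK3 was the member that was lower (-0.40). In the insoluble fraction after NaAsO2, 4 members were called lower and 0 higher, against 8.37% and 5.61% of all genes. Without the fold limit, 17 were lower and 7 higher, against 21.8% and 21.2%. Those called lower were EIF3E (log2 fold change -1.22, SE 0.18, adjusted p = 2.0e-05), EIF3H (-1.21, SE 0.27, adjusted p = 0.0014), EIF2A (-1.09, SE 0.21, adjusted p = 0.00038) and EIF3L (-1.04, SE 0.25, adjusted p = 0.0024). Each of them lost the call without replicate 3, and EIF4A1 (-1.29) and EIF3C (-1.26) were called in their place.

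After RK-33, no member was called in the soluble fraction (0 of 53 by edgeR's quasi-likelihood test and DESeq2, 12 at an unadjusted p under 0.05, against 0.515% of all genes) or in the pellet (0 of 53 by both, 26 at an unadjusted p under 0.05, against 1.86%). Without the fold limit, 3 members were higher and 0 lower in the soluble fraction, against 2.09% and 3.24% of all genes. In the same way 16 members were lower and 1 higher in the RK-33 pellet, against 8.19% and 5.71% of all genes. The lowest were EIF1B (-0.86) and EIF3H (-0.83). EEF2 (-0.75), EEF1A1 (-0.71) and EEF1B2 (-0.65) were among the 16. EIF4A2 was the member that was higher (0.56, adjusted p = 0.001).

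EIF4A2, a paralog of the helicase EIF4A1, rose when both agents were given. It was at 159, 130.2 and 152 CPM in Ctrl, 152, 144 and 155 in NaAsO2, 201, 199 and 189 in RK-33 and 347, 363 and 394 in Combo in the soluble fraction. In the pellet EIF4A2 was at 159, 147 and 153 CPM in Ctrl, 149, 134 and 108 in NaAsO2, 228, 222 and 228 in RK-33 and 310.0, 341 and 336 in Combo. All Combo libraries lay above all others of their fraction. Against NaAsO2 alone, EIF4A2 rose in the soluble (log2 fold change 1.29, SE 0.11, adjusted p = 3.9e-08) and in the insoluble fraction (log2 fold change 1.34, SE 0.11, adjusted p = 3.7e-08). Members called higher numbered 2 of 53 in the soluble and 1 of 53 in the insoluble fraction, against 2.41% and 3.11% of all genes, and 0 were lower, against 0.0283% and 0.815%. The insoluble call of EIF4A2 was lost with the compared groups fitted alone (adjusted p = 0.076). The other was EIF4A1, higher in the soluble fraction (log2 fold change 1.09, SE 0.26, adjusted p = 0.014), a call lost with exon plus intron counts (0.97) and on leaving out soluble NaAsO2 replicate 2 (0.97) or replicate 3 (0.98), with adjusted p up to 0.10. Soluble EIF4A1 was at 8.57, 7.64 and 9.10 CPM in Ctrl, 8.92, 5.58 and 5.69 in NaAsO2, 7.59, 6.85 and 6.83 in RK-33 and 13, 13.8 and 16.1 in Combo. Insoluble EIF4A1 was at 10.2, 7.16 and 7.24 CPM in Ctrl, 3.63, 2.74 and 7.95 in NaAsO2, 6.86, 10.9 and 7.52 in RK-33 and 8.10, 9.23 and 8.95 in Combo. Rows of EIF4A1 pseudogenes held 27.6% as many counts as EIF4A1 itself, so its level is uncertain. Merged exons cover 91.6% of the EIF4A2 gene (chr3:186783205-186789897), so fragments of most of its introns count as exonic, and unspliced EIF4A2 RNA cannot be told apart from mRNA here.

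Length of the mRNA went with the fraction effect across members. Across the 53 members, the Spearman correlation of the fraction effect with merged exon length was 0.42 in Ctrl, 0.48 in NaAsO2, 0.53 in RK-33 and 0.50 in Combo, against 0.28, 0.26, 0.30 and 0.32 across 17666 genes. Merged exons include all annotated isoforms. With the length of the canonical transcript, a measure chosen after seeing the data, the order was opposite, with 0.31, 0.41, 0.38 and 0.42 for members and 0.49, 0.50, 0.60 and 0.59 across 13419 genes. Genes are not independent replicates and share libraries, so these are descriptions. In NaAsO2, members lay below genes of like length: over 4 classes of canonical length with about as many genes each, from short to long, the median log2 fold change of members was -1.35, -1.15, -1.04 and -0.74 (17, 13, 13 and 10 members), and that of all genes -0.76, -0.12, 0.21 and 0.61. In Ctrl the medians were -0.87, -0.32, -0.31 and -0.36 for members and -0.64, -0.15, 0.07 and 0.39 for all genes. In RK-33 they were -0.76, -0.78, -0.70 and -0.56 for members and -0.92, -0.28, 0.12 and 0.59 for all genes, so the shortest members lay above genes of like length. Combo gave -1.15, -0.72, -0.65 and -0.52 for members and -0.76, -0.16, 0.18 and 0.58 for all genes. The first 3 classes end at 2149, 3487 and 5414 bases. EIF4G1 (5405 bases) and EIF4G2 (3794 bases) fell in the same class with opposite fraction effects.

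**Figure D5:**
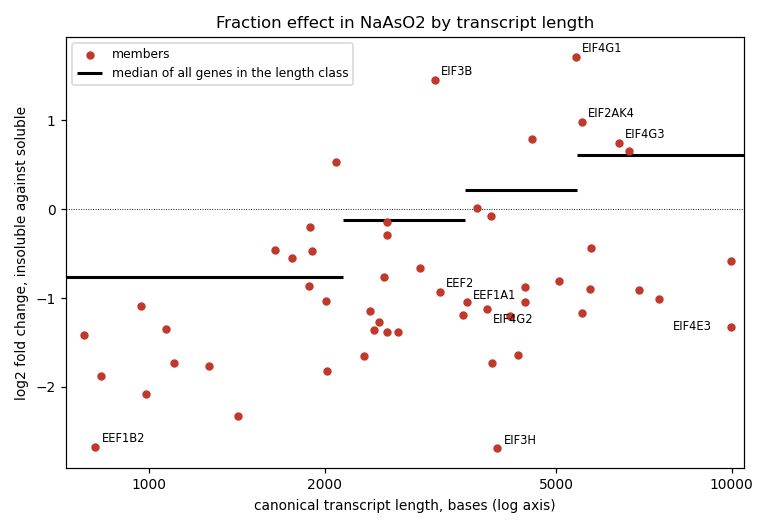
Log2 fold change of the insoluble against the soluble fraction in NaAsO2 (y axis) against canonical transcript length in bases (x axis, log scale), with 1 point for each of the 53 members and horizontal lines at the median of all 13419 genes in each length class. The lines rise from -0.76 to 0.61, and most members lie below the line of their class.

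Of the 46 members tested over introns, 3 were called lower in the pellet and 0 higher in Ctrl (against 12.3% and 6.58% of all 17406 intron entries tested), 8 lower and 1 higher in NaAsO2 (5.92% and 5.18%), 10 lower and 1 higher in RK-33 (15.2% and 10.7%), and 4 lower and 1 higher in Combo (8.61% and 4.11%). EIF3F introns, with 2 to 152 counts per library, had the lowest fraction effect in each treatment, of -2.82, -1.68, -3.37 and -2.57 in Ctrl, NaAsO2, RK-33 and Combo. EIF4G2 introns were higher in the pellet in RK-33 (log2 fold change 1.36, SE 0.27, adjusted p = 0.00013) and Combo (log2 fold change 1.07, SE 0.24, adjusted p = 0.0013), opposite to EIF4G2 exons. The RK-33 call was lost with library size alone (0.90). The Combo call was lost in 4 of 14 alternatives (down to 0.79), among them library size alone. EEF2 introns had -0.50 in Ctrl and 0.31 in NaAsO2, neither called. EEF1D introns were higher in NaAsO2 (log2 fold change 1.25, SE 0.23, adjusted p = 0.00024), a call lost without replicate 3 of the insoluble fraction. Intron fragments made up 2.82% to 7.44% of the exon plus intron counts of members in soluble and 4.36% to 13.95% in insoluble libraries. The members not tested over introns were EIF2B4, with 15 counts in total, and EIF2A, EIF3C, EIF4A1, EIF4A2, EIF4E3, EIF4ENIF1 and EEF1G, with 0. For those with 0, exon plus intron counts left their own counts unchanged.

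A list of 28 other translation genes (regulators, reinitiation and termination factors, poly(A)-binding partners and mTOR pathway genes) gave 1 higher and 3 lower in Ctrl (all genes 11.8% and 10.7%), 2 higher and 6 lower in NaAsO2 (14.6% and 16%), 1 higher and 5 lower in RK-33 (15.5% and 15.2%) and 2 higher and 6 lower in Combo (10% and 13.1%), with medians of -0.10, -0.26, -0.22 and -0.16. In NaAsO2, LARP1, which binds the cap and tract of TOP mRNAs, was higher in the pellet (log2 fold change 1.54, SE 0.10, adjusted p = 9.8e-12), as was MTOR, the kinase above it (log2 fold change 1.45, SE 0.13, adjusted p = 2.2e-09). The lowest were TPT1, itself a TOP mRNA (log2 fold change -2.60, SE 0.14, adjusted p = 1.4e-12), and MCTS1, a reinitiation factor (log2 fold change -2.10, SE 0.19, adjusted p = 2.4e-09).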

How the data were processed

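Exon and intron counts per gene were deposited by the authors for 24 libraries of rRNA-depleted RNA in 8 groups of 3, and no further normalization had been applied to these raw counts. Per the study's methods and processing notes, reads were aligned with STAR 2.7.2b, handled with SAMtools 1.2 and counted without strand with featureCounts 1.5.3 on GENCODE release 40, introns were genes minus merged exons with a minimum overlap of 25 bases, and fragments on more than 1 gene were not assigned, which lowers overlapping genes. Without strand, antisense transcripts cannot be separated. Circular RNA counts were deposited too.

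All 24 libraries were fitted together with edgeR 4.0.16 in R 4.3.3 (quasi-likelihood test, TMM, mean of at least 1 CPM, Benjamini-Hochberg adjustment over 17666 genes for exons and 17406 for introns). Calls required a log2 fold change of 1 or more in size beside an adjusted p under 0.05. In all, 13 comparisons were made over exons and 4 over introns, and the tests were tested on simulated data. DESeq2 1.42.0 and edgeR's likelihood ratio test, which the study used, were alternatives, as were other scalings, filters, blocks and left-out libraries. Tables and plots were made with Python 3.11.15, pandas 2.3.3 and matplotlib 3.10.9. Libraries held 10968059 to 19799530 counts, and counts of the 37 mitochondrial genes were 0.

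The members and gene lists were chosen with earlier results of these data known. All members could be named, values in every library were given for TOP and eIF4G members and members called in a treatment comparison or a difference of fraction effects, and the 3 largest changes in each direction were named per treatment. Of the other translation genes, the 2 largest changes in each direction in NaAsO2 were named. Pairing was checked by the correlation of deviations from group means: it was -0.288 to 0.110 between fractions with the same number, which were taken as 1 lysate. For NaAsO2 and Combo insoluble libraries of the same number it was 0.459, 0.383 and 0.667. For the other treatment comparisons it was -0.215 to 0.200. The highest of these was replicate 1 of RK-33 and Ctrl in the soluble fraction, and the next was 0.068.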

Additional observations from a re-analysis of the deposited data

Results flagged for a closer look

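For 9 members, the fraction effect differed between NaAsO2 and Ctrl by a test of the difference itself, edgeR's interaction term. On the log2 scale the differences were -1.79 for EIF3C, -1.63 for EEF2, -1.59 for EIF3H, -1.53 for EIF3L, -1.46 for EIF3E, -1.42 for EIF2A, -1.38 for EIF3D, -1.18 for EEF1B2 and -1.16 for EIF2B2. For RK-33 against Ctrl the same test gave -1.39 for EEF2 and -1.03 for EEF1A1. For these flags, groups of 3 libraries were not screened for outlying samples. By the chi-square comparison given above, replicate 3 of the NaAsO2 insoluble, RK-33 soluble and Combo insoluble fractions stood apart.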

How the results depend on the processing

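Of 127 member results past the call, 71 kept it under every alternative run, and none of the 1940 alternative values changed direction past the call. Without the fold limit, members called between fractions numbered 38 (Ctrl), 47 (NaAsO2), 44 (RK-33) and 44 (Combo), and over introns 16, 20, 24 and 21. For NaAsO2 against Ctrl they numbered 13 (soluble) and 24 (insoluble), for RK-33 against Ctrl 3 and 17, for Combo against NaAsO2 7 and 8, and for the differences of fraction effects 21 (NaAsO2) and 5 (RK-33). Shares of all genes without the fold limit are not given for introns, Combo against NaAsO2 or the RK-33 difference. Nor are shares given for the alternatives below. Such counts show how calls depend on processing and do not set members apart from other genes. With library size alone, 2 were called for Combo against NaAsO2 in the pellet, 1 for the RK-33 difference, and 13, 18 and 13 over introns in Ctrl, RK-33 and Combo. No filter gave 2 for NaAsO2 against Ctrl in the pellet, and the 5 CPM filter gave 1 for the RK-33 difference and 6 for Ctrl introns. Exon plus intron counts gave 1 for NaAsO2 against Ctrl and 1 for Combo against NaAsO2, both soluble, and 1 for the RK-33 difference. Between fractions they gave 14, 28, 20 and 16 in Ctrl, NaAsO2, RK-33 and Combo, and lost 7 of 17, 2 of 30, 3 of 17 and 2 of 17 calls. With the compared groups alone, 1 was called for NaAsO2 against Ctrl and 0 for Combo against NaAsO2, both in the pellet, and 2 over introns in NaAsO2. With lysate as a replicate block, 17, 30, 16 and 17 members were called between fractions, 9 for the NaAsO2 difference and 1 for the RK-33 difference, and blocking on replicate number left each treatment count as it was (1 for Combo against NaAsO2 in the pellet). Where causes were not stated, the cause was not tested.

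Leaving out 1 library at a time gave 15 to 19 (Ctrl), 23 to 30 (NaAsO2), 14 to 19 (RK-33) and 15 to 20 (Combo) members between fractions, 0 to 1 and 2 to 5 for NaAsO2 against Ctrl (soluble, insoluble), 1 to 2 for Combo against NaAsO2 in either fraction, 8 to 11 for the NaAsO2 and 1 to 3 for the RK-33 difference. Over introns the ranges were 2 to 5, 4 to 8, 9 to 11 and 3 to 9. The length correlation was 0.31, 0.41, 0.38 and 0.42 with canonical length, 0.47 in Combo without eIF4G scaffolds, and 0.476 to 0.493 in Combo with a library left out. TOP minus eIF4G was -0.88, -1.50 and -1.28 in Ctrl, NaAsO2 and Combo with elongation factors only. With EIF4G1 and EIF4G3 only it was -1.85, -2.64, -1.99 and -1.95 in Ctrl, NaAsO2, RK-33 and Combo, and -2.11 over all lysates, and with exon plus intron counts -0.85, -1.65, -1.19 and -1.26. Depth limited EIF3C, EIF4A1 and the introns of EIF3F.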

Other observations

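EIF3H was the only member that hosted 1 of the 394 circular RNAs counted. Its back-splice junction had 19 counts over all soluble and 2 over all insoluble libraries, beside 4741 and 1263 linear counts at the same site. By treatment the soluble back-splice counts were 3 in Ctrl, 7 in NaAsO2, 2 in RK-33 and 7 in Combo, too few for a comparison.

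Over all genes tested that are in the promoter table, those with a pyrimidine run at a start site had a median difference of fraction effects between NaAsO2 and Ctrl of -0.10 (844 genes), and those without a run of 0.00 (10945 genes).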
